A study of Rattus norvegicus with 8 samples.

Results

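A-kinase anchoring proteins are scaffolds that hold protein kinase A, the main kinase activated by cyclic AMP, at fixed places in a cell. They bind the regulatory subunits of the kinase, and many also hold phosphodiesterases, phosphatases or other kinases, so that phosphorylation is set locally. In the testis, Akap3 and Akap4 encode the main anchoring proteins of the fibrous sheath, the sleeve around the principal piece of the sperm tail, and both are made late, in spermatids. Akap14 encodes a small anchoring protein of ciliary and flagellar axonemes. The other members act in cells of many kinds.

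The 10 genes examined were Akap1, Akap3, Akap4, Akap8, Akap9, Akap10, Akap11, Akap12, Akap13 and Akap14, chosen by name through the RefSeq accessions of the array probes. Of the 30367 probes, 13 matched 9 of these genes, and no value was given to Akap11, for which no probe matched. All 9 passed the filter on dim probes and were among 10236 named genes tested, of 15154 with a probe. Akap3, Akap4 and Akap14 are called the flagellar members below, and the other 6 are compared with them. The genes were proposed from the difference between the age groups in these same arrays, so that their differences are described without a test.

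RNA came from testis cells of male Sprague-Dawley rats, sorted by flow cytometry for the surface protein CD9. CD9 marks spermatogonia, which include the testis stem cells, but other cells carry it too. All rats carried a transgene for green fluorescent protein that is specific to germ cells, and the labels do not name its promoter. The 4 young arrays came from rats of 4 months and the 4 aged arrays from rats of 21 months, with no other treatment named. The labels do not say whether arrays came from separate or pooled animals, so the p-values reflect only how these samples vary, which may be technical.

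Signals are given as log2 values relative to the 75th percentile of the probes on the same array, a level of 326 to 523.6 intensity units. Differences are aged minus young on that scale, and a value is comparable between arrays for a probe but not between probes. Each array had 63.0% to 72.0% of its probes well above background, and pairs of arrays correlated across probes at r of 0.962 to 0.996 among young and 0.981 to 0.993 among aged arrays. Cd9 itself was well above background on all 8 arrays. Its level ranged from −1.91 to −1.13 and its aged minus young difference was −0.16 ± 0.16 (SE, limma adjusted p = 0.492). Over all genes tested the median difference was 0.11. The arrays shared 1 slide and 1 scan. Young arrays filled one of its rows and aged arrays the other, so an effect of position cannot be told apart from that of age.

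Young replicate 1 stood apart from the other young arrays in the genes described here. A list of 26 spermatid markers, of which 23 were tested, had a mean level, each gene centred over the 8 arrays, of −0.51 in young replicate 1, 0.57 to 1.13 in the other 3 young arrays and −1.15 to −0.16 in the aged arrays. A list of 14 myoid and stromal markers, 11 of them tested, stood at −0.59 in young replicate 1, 1.05 to 1.22 in the other young arrays and −1.36 to −0.31 in the aged ones. The 11 tested of 14 macrophage and myeloid markers stood at −0.53, at 0.52 to 1.01 and at −1.34 to 0.49 in the same order. Aged replicate 2 was the lowest aged array in each of these lists, at −1.15, −1.36 and −1.34. The other aged arrays stood at −0.47 to −0.16, −0.69 to −0.31 and −0.41 to 0.49. Differences of the lower members, likeness and counts of calls are therefore also given without young replicate 1. It was set apart by these same lists. Larger differences and more calls without it follow in part from that choice, and nothing is read from them. In bulk RNA, fewer cells of a type and less RNA per cell cannot be told apart.

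The promoters of the flagellar members are shown because these genes were lower together in the aged arrays. Each is the 250 bases before the annotated start in the RefSeq promoter table (rat assembly GRCr8), read 5′ to 3′ on the gene's own strand, with TGACATCA on either strand in capitals. The word reads TGATGTCA where it lies on the opposite strand. Akap3 is on the forward strand at chr4:161377800-161378049, Akap4 on the reverse strand at chrX:18117550-18117799 and Akap14 on the reverse strand at chrX:121276377-121276626.
Akap3: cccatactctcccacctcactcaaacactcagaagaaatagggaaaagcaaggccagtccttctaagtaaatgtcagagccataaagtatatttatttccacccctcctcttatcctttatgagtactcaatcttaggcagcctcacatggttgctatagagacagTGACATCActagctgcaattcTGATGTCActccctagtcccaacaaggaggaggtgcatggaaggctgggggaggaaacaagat
Akap4: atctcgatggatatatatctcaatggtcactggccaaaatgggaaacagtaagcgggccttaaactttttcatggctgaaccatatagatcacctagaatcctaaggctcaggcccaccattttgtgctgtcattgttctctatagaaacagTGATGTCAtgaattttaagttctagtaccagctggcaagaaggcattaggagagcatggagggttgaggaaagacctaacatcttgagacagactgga
Akap14: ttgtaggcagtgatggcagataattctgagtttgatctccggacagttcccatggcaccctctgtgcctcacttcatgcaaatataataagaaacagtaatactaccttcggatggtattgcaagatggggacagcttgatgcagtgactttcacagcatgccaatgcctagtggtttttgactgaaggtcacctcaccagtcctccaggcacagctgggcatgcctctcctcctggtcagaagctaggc

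TGACATCA resembles the cyclic AMP response element TGACGTCA, the site of the CREB and CREM transcription factors. The word was chosen after these sequences were seen. It began 84 bases before the start of Akap3 on the gene's strand, and its opposite-strand copies began 63 bases before the start of Akap3 and 98 bases before that of Akap4. Akap14 held none. Other pairs shared words too: the longest on the gene strands was CACCTCAC for Akap3 and Akap14, found on either strand in 332 promoters (1.21%), and GAAACAGTAA for Akap4 and Akap14, found in 22 (0.0801%). Of 27457 rat promoters cut to the same 250 bases, 1031 (3.75%) held TGACATCA on either strand, as did 2 of the 10 members, all of which had an entry in the table. The element TGACGTCA itself stood in 466 promoters (1.7%) and in 0 of the 10 members. The word GTTGCC, a half-site of the X-box that RFX factors bind in genes of cilia, stood in 2719 promoters (9.9%) and in those of Akap11 and Akap13. No copy of one of these 5 words overlapped another in the members. These matches are descriptions of letters in a window.

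The flagellar members were all lower in the aged arrays, with differences of −1.27 for Akap3, −1.19 for Akap4 and −2.80 for Akap14. Among the other 6 members, Akap12, a scaffold at the plasma membrane, and Akap1, a scaffold of the outer mitochondrial membrane, were also lower, by differences of −1.44 and −0.91. Akap8, Akap9, Akap10 and Akap13 were higher by 0.26 to 0.67, Akap10 by its brighter probe only. The median difference was −1.27 over the 3 flagellar members and 0.29 over the other 6, beside 0.11 over all genes, of which 6493 were higher and 3743 lower. The value of 0.29 rests in part on the brighter Akap10 probe. With the probes of each gene averaged, Akap10 stood at −0.07. The flagellar minus other difference was then −1.39, against −1.56 as reported. Akap8, Akap9 and Akap10 lay closest to the median gene, and lower values were found on both sides of the flagellar division.

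**Figure D1:**
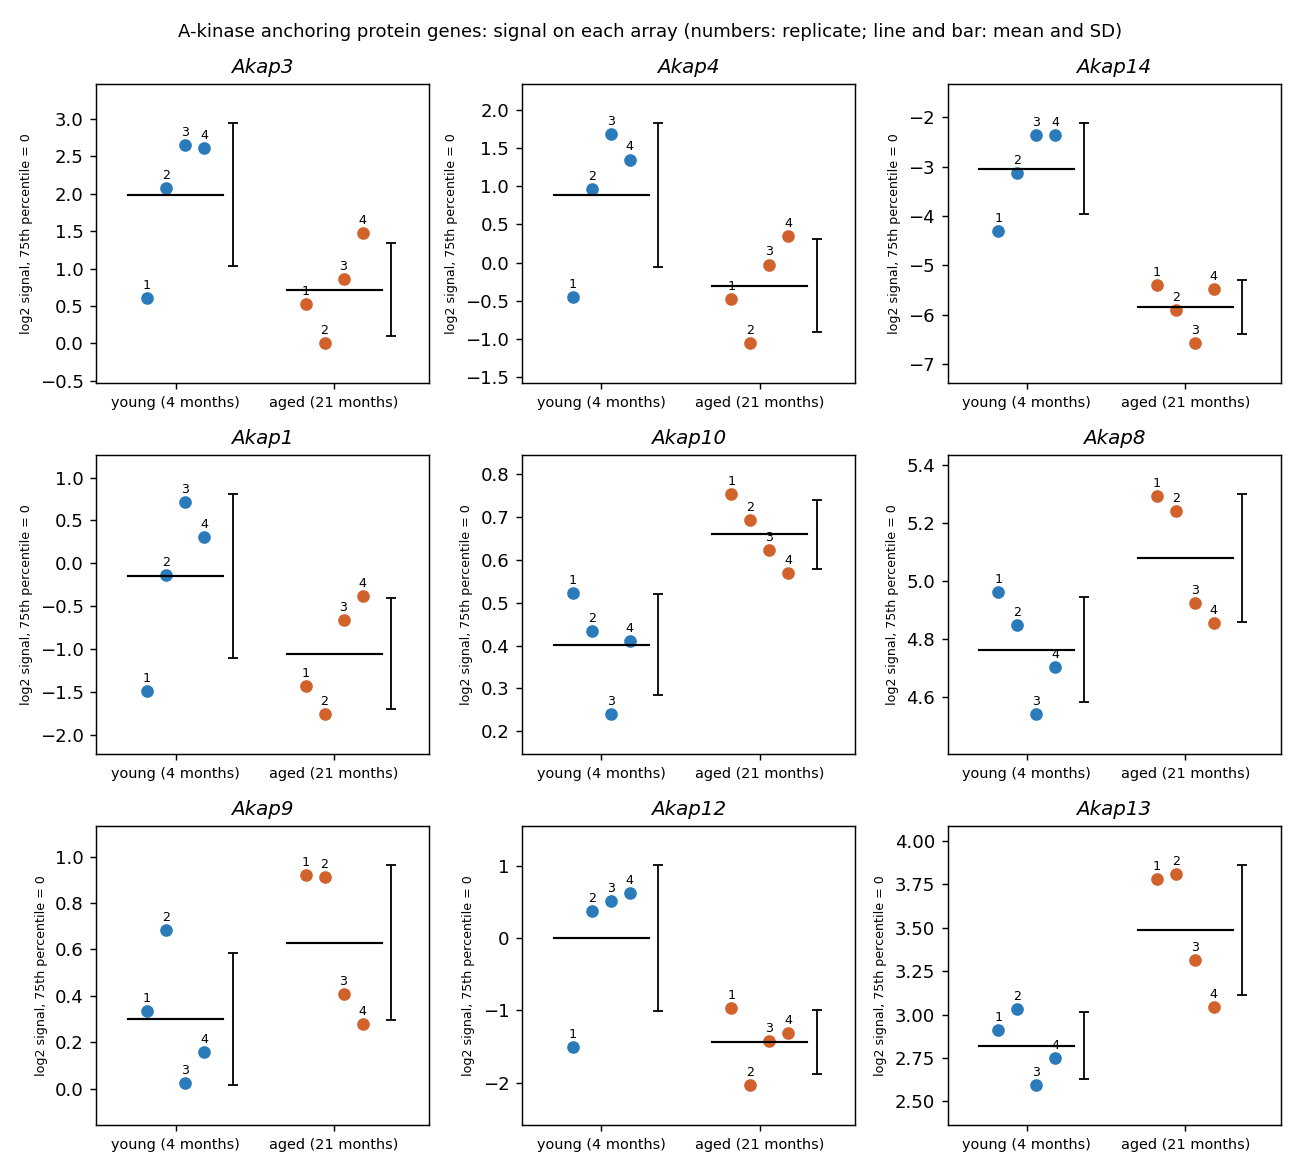
Signal of each A-kinase anchoring protein gene on each array (log2, with the array's 75th percentile at 0). Points are arrays, numbered by replicate, lines are group means and bars are SD (n = 4 a group). Young replicate 1 lies among or near the aged arrays for Akap3, Akap4, Akap1 and Akap12, and the groups do not overlap for Akap14, Akap13 and the brighter Akap10 probe shown.

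Akap3 forms the fibrous sheath early in its assembly and binds both Akap4 and regulatory subunits of protein kinase A. Its levels were 0.61, 2.08, 2.64 and 2.61 on young arrays 1 to 4 and 0.52, 0.0007, 0.87 and 1.48 on aged arrays 1 to 4. Young replicate 1 lay among the aged arrays and the other 3 young arrays lay above every aged array. The group means were 1.98 ± 0.95 (SD, n = 4) and 0.72 ± 0.62 (SD, n = 4), a 2.41-fold lower mean in the aged group. The difference was −1.27 (SE 0.47), and −1.73 without young replicate 1.

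Akap4 encodes the most abundant protein of the fibrous sheath and lies on the X chromosome. Its levels were −0.45, 0.96, 1.68 and 1.35 on the young arrays and −0.48, −1.06, −0.03 and 0.35 on the aged arrays. The 8 arrays fell in the same order as for Akap3: young replicate 1 was beside aged replicate 1, and the other young arrays were above all aged ones. The young mean was 0.89 ± 0.94 (SD, n = 4) and the aged mean −0.30 ± 0.61 (SD, n = 4), 2.28-fold lower. The difference of −1.19 (SE 0.46) became −1.63 without young replicate 1.

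Akap14 was dim on all arrays, and its difference was the largest of the 9 members with the deposited background subtraction only. Its processed signals were 16.5, 46.1, 98.1 and 79.6 intensity units on the young arrays and 8.05, 6.04, 4.15 and 11.8 on the aged arrays. It was well above background on all 4 young arrays, and on aged replicates 1 and 4 only, in each for 1 of its 2 spots. On the log2 scale these were −4.31, −3.13, −2.36 and −2.37 against −5.40, −5.91, −6.58 and −5.48. Here every young array, replicate 1 included, was above every aged array. The means were −3.04 ± 0.92 and −5.84 ± 0.54 (SD, n = 4 each), with a difference of −2.80 (SE 0.44), or −3.22 without young replicate 1. No fold is given, since the probe passed the filter through the young group and was not well above background on 2 aged arrays. Its size depended on how background was treated: with a normexp correction in place of the deposited subtraction the difference was −0.76, smaller than those of Akap3, Akap4, Akap1 and Akap12 under that correction.

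Akap1 holds protein kinase A, phosphatases and messenger RNAs at the mitochondrial surface. Its brighter probe read −1.49, −0.13, 0.71 and 0.31 on the young arrays and −1.43, −1.76, −0.66 and −0.38 on the aged arrays. The arrays were ordered nearly as for Akap3 and Akap4, with young replicate 1 among the aged arrays and the other young arrays above all of them. The means were −0.15 ± 0.96 and −1.06 ± 0.65 (SD, n = 4 each), 1.87-fold lower, and the difference was −0.91 (SE 0.48), or −1.35 without young replicate 1. A second probe gave −0.99.

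Akap10, a dual-specificity anchoring protein that binds both type I and type II regulatory subunits, differed far less. Its brighter probe read 0.52, 0.43, 0.24 and 0.41 on the young arrays and 0.75, 0.69, 0.62 and 0.57 on the aged arrays. These groups did not overlap, with aged arrays higher by 0.26 (SE 0.10). The second probe disagreed in direction, with a difference of −0.39 and overlapping groups: it read −2.11, −1.71, −1.63 and −1.63 on the young arrays and −2.29, −2.16, −2.08 and −2.10 on the aged ones. No direction is therefore given to the gene.

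Akap8 encodes a nuclear anchoring protein that binds chromatin and takes part in chromosome condensation. It read 4.96, 4.85, 4.54 and 4.71 on the young arrays and 5.29, 5.24, 4.92 and 4.86 on the aged arrays. Aged replicates 3 and 4 lay within the young range, and the difference was 0.31 (SE 0.14).

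Akap9, a large scaffold of the centrosome and Golgi, had a probe printed in 10 spots. It read 0.33, 0.68, 0.02 and 0.16 on the young arrays and 0.92, 0.91, 0.41 and 0.28 on the aged arrays, and the groups overlapped. The difference was 0.33 (SE 0.20) by this probe and 0.36 by a second one.

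Akap12, also known as gravin, links protein kinase A and protein kinase C to the membrane and cytoskeleton of motile and stromal cells. Its brighter probe read −1.50, 0.37, 0.52 and 0.63 on the young arrays and −0.97, −2.04, −1.43 and −1.31 on the aged arrays. Young replicate 1 was lower than 3 of the 4 aged arrays, while the other young arrays were above all of them. The means were 0.006 ± 1.01 and −1.44 ± 0.44 (SD, n = 4 each), 2.72-fold lower. The difference was −1.44 (SE 0.46) and grew to −1.95 without young replicate 1, and a second probe gave −1.40.

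Akap13 carries a guanine nucleotide exchange domain that activates the GTPase RhoA beside its anchoring site. It read 2.91, 3.03, 2.59 and 2.75 on the young arrays and 3.78, 3.81, 3.31 and 3.04 on the aged arrays. All aged arrays were above all young ones, though aged replicate 4 was barely above young replicate 2. The means were 2.82 ± 0.19 and 3.49 ± 0.37 (SD, n = 4 each), 1.59-fold higher in the aged group, and the difference was 0.67 (SE 0.19).

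Across the members, 1 of 9 (Akap14) was called in the limma fit over all genes at an adjusted p under 0.05, where 0.655% of all genes were called (0.156% lower, 0.498% higher). Values of this contrast chose the members, so nothing is read from that count. The call of Akap14 was lost with no scaling, normexp with quantile scaling, no filter on dim probes, unnamed probes included, the replicate number as a block, and in 7 of 8 fits that left out 1 array, all but that without young replicate 1. Among these fits, normexp with quantile scaling still called 253 genes (2.47%), while each of the others called at most 1 gene in all. Under the filter that needs all 8 arrays Akap14 was not tested. The groups did not overlap for 1 lower member, Akap14 (4.12% of all genes), and for 2 higher members, Akap13 and, by its brighter probe, Akap10 (10.2%), beside 14.3% of all genes in either direction. Without young replicate 1, groups did not overlap for 5 lower members, Akap3, Akap4, Akap14, Akap1 and Akap12 (16.5% of all genes). Nor did they for 3 higher members, Akap8, Akap13 and, by its brighter probe, Akap10 (29.9%), beside 46.3% in either direction. In that smaller set 7 members were called, where 36.9% of all genes were (14.6% lower, 22.3% higher), all but Akap8 and Akap9. Akap10 was among them by its brighter probe, while its second probe had a difference of −0.50 there. Without young replicate 1 the flagellar median was −1.73 and that of the other members 0.32, again with the brighter Akap10 probe.

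The direction of the 5 lower members and of Akap13 held under each scaling and background correction tried. Scaling to spike-in RNA, which moved the median gene to −0.35, turned Akap10 (−0.20), Akap8 (−0.14) and Akap9 (−0.13) negative and left Akap13 at 0.21. Scaling to the median moved the median gene to 0.26. Relative to the median gene, Akap8, Akap9 and, by its brighter probe, Akap10 were higher by 0.21, 0.22 and 0.15 under the scaling used here. Spike-in scaling cannot change these distances, since it shifts all genes of an array alike. Under quantile scaling, which can, they were 0.02, 0.19 and 0.13.

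**Figure D2:**
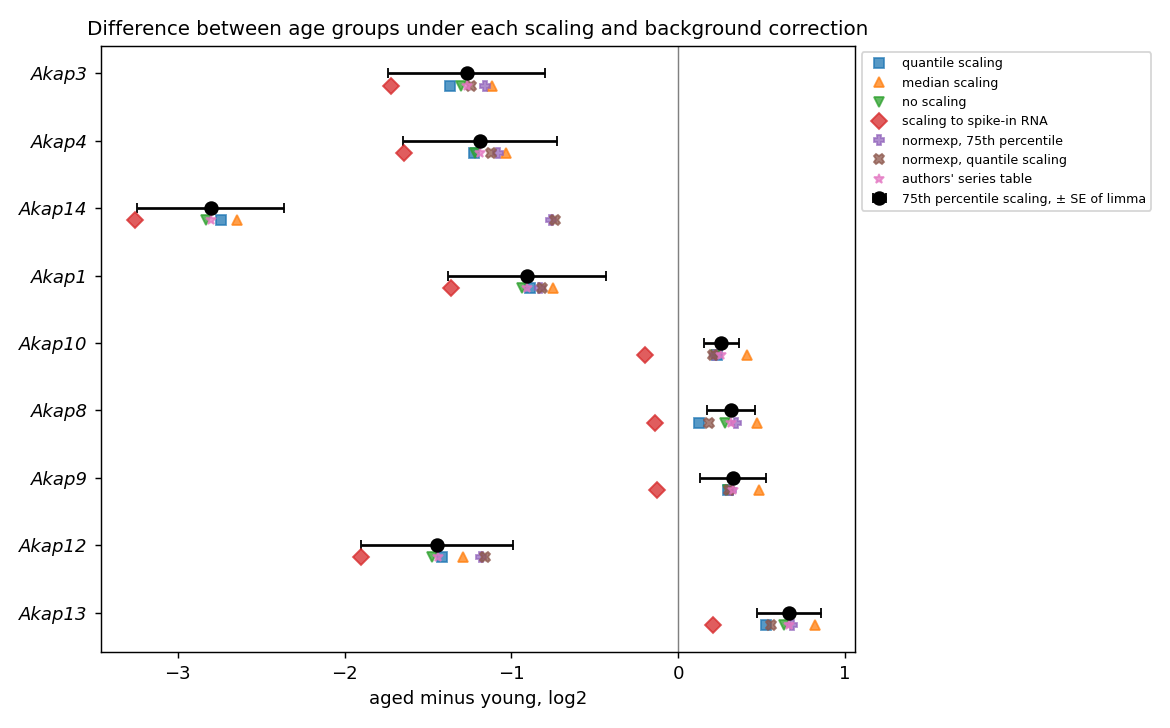
Aged minus young difference of each member (log2) under each scaling and background correction. Black points are the values reported, with bars of ± 1 SE from limma (4 against 4 arrays). Akap14 moves from −2.80 to −0.76 with normexp, and Akap8, Akap9 and Akap10 cross 0 only under spike-in scaling.

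The 5 lower members varied widely within the age groups. The within-group SD of Akap3, Akap4, Akap14, Akap1 and Akap12 was larger than that of 96.6%, 96.4%, 95.5%, 96.9% and 96.1% of all genes, while Akap10 exceeded only 4.54%. Young replicate 1 lay below the mean of the other young arrays by a gap of −1.84 for Akap3, −1.79 for Akap4, −1.69 for Akap14, −1.78 for Akap1 and −2.01 for Akap12. In the remaining members the gap was 0.05 to 0.26, beside 0.19 for the median gene. A contrast that spans such spread has wide errors, as the SE of 0.44 to 0.48 for these 5 members shows. Leaving out each array in turn gave differences of −1.73 to −1.03 for Akap3, −1.63 to −0.92 for Akap4 and −3.22 to −2.55 for Akap14. The ranges were −1.35 to −0.62 for Akap1 and −1.95 to −1.24 for Akap12. The lowest value of each was that without young replicate 1, and Akap3 stood at −1.03 without aged replicate 2.

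Likeness within the age groups was described by Pearson's r of values from which the group means had been removed, over the 8 arrays, which share 1 slide and the spread set by young replicate 1. Akap3 and Akap4 had r = 0.99, and 0.97 without young replicate 1. Akap1, no sheath protein, was as close, with r = 0.98 to Akap3 and 0.99 to Akap4, or 0.94 and 0.98 without that array. Akap14 was less like them, with r = 0.75 to Akap3 and 0.71 to Akap4, falling to 0.31 and 0.22 without it. Akap8, Akap9 and Akap13 varied together, at r = 0.92 for Akap8 with Akap13 and 0.95 for Akap9 with Akap13 (0.98 and 0.96 without that array). Akap10, by its brighter probe, varied with them, at r = 0.92 to Akap8, 0.77 to Akap13 and 0.72 to Akap9. Without young replicate 1 these were 0.91, 0.84 and 0.84. Akap13 and Akap1 varied oppositely, at r = −0.72, or −0.98 without young replicate 1.

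The marker lists varied with the members in the same way. The mean of the spermatid list had r = 0.98 with Akap3, 0.97 with Akap4, 0.94 with Akap1 and 0.78 with Akap14, or 0.93, 0.91, 0.84 and 0.38 without young replicate 1. Akap12 had r = 0.98 with the myoid and stromal list, 0.93 without that array, and 0.93 with the spermatid list, 0.78 without it. Akap3 and Akap4 had r of 0.85 and 0.86 with the myoid and stromal list, 0.51 and 0.56 without young replicate 1. Their r was 0.85 and 0.84 with the macrophage and myeloid list, 0.76 and 0.73 without that array. With the Leydig list it was 0.85 and 0.87, or 0.70 and 0.74 without it. All 23 tested spermatid markers had lower values in the aged arrays, with a median of −0.95, or −1.28 without young replicate 1. In the limma fit 0 were called, 13 had an unadjusted p under 0.05 (31.4% of all genes did), and 21 were called lower without young replicate 1 (14.6% of all genes). That array was set apart by this same list, so the count without it is not read as a result. The protein packers of spermatid chromatin were high on all arrays: Tnp1 stood at 7.40 and 6.86 in the young and aged means (limma adjusted p = 0.208, or 0.0198 without young replicate 1) and Prm1 at 7.30 and 6.64 (adjusted p = 0.207, or 0.0441). All 11 tested myoid and stromal markers were lower, with a median of −1.55 (−1.81 without young replicate 1) and 1 called (0.156% of all genes were called lower), while 19 of 21 tested spermatocyte markers were higher, with a median of 0.73 (0.70 without that array) and 7 called (0.498% of all genes were called higher). The part that these cell types play in the values of the members was not tested.

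Among 10233 other genes, those most like Akap3 by this measure were Spata21, named for spermatogenesis (r = 0.998), and, at r = 0.998 to 0.997, Sqor, a mitochondrial sulfide oxidase, Prss59, a serine protease, the glycerol channel Aqp7, and Klhl12, an adaptor of a ubiquitin ligase. Their differences ran from −1.27 to −0.90, and their r was 0.993 to 0.999 without young replicate 1. Genes most like Akap4 included Stat4, a transcription factor also present in spermatids, Zfp474, the mitochondrial glycerol-3-phosphate dehydrogenase Gpd2, and the oxysterol-binding Osbp2, with r of 0.999 to 0.998, or 0.997 to 0.994 without that array. For Akap14 they were Mageb5, Paip2, which restrains poly(A)-binding protein, Tm4sf4, Ngly1 and the mitochondrial ornithine carrier Slc25a2, with r of 0.989 to 0.973, or 0.985 to 0.935 without it. High values of r were common for the sheath genes: 789 genes (7.71%) exceeded 0.9 with Akap3 and 793 (7.75%) with Akap4, against 67 (0.655%) with Akap14.

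**Figure D3:**
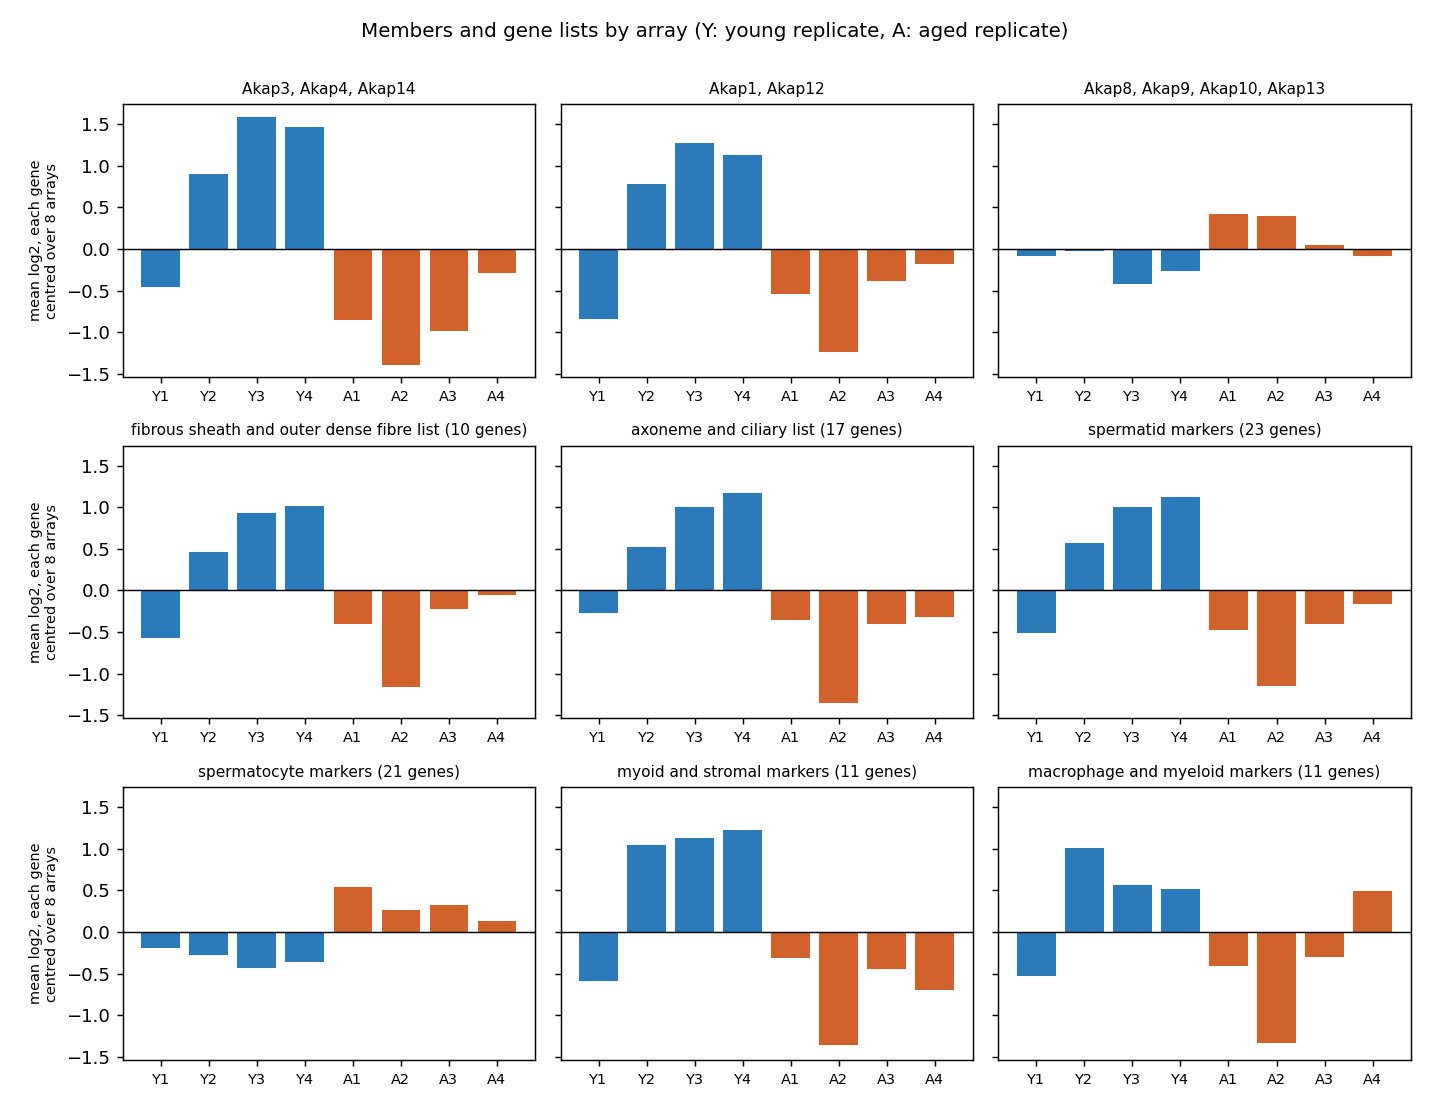
Mean level by array of members and of gene lists (log2, each gene centred over the 8 arrays). Blue bars are young (Y) and orange bars aged (A) replicates. The flagellar members stand at −0.45 in young replicate 1, 0.90 to 1.59 in the other young arrays and −1.39 to −0.28 in the aged arrays, beside −0.51, 0.57 to 1.13 and −1.15 to −0.16 for the spermatid markers.

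The other genes of the pathway were tested in the same limma fit. Of 93 tested genes in 7 lists, which hold none of the members, 0 were called at an adjusted p under 0.05. At an unadjusted p under 0.05 there were 47, as were 31.4% of all genes, and 53 were called without young replicate 1, where 36.9% of all genes were. The values below are therefore differences that did not pass the test on all 8 arrays. Of the 18 pathway genes named below, 16 were called without young replicate 1, all but Prkacb and Prkar1a. Leaving out any other array gave at most 1 call over all genes. Young replicate 1 was set apart by spermatid and stromal markers, so calls and p-values without it are given here and below as description only.

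The subunits of protein kinase A, which the anchoring proteins hold, showed no common direction. All 9 subunits and inhibitors were tested, 4 with higher and 5 with lower values and a median of −0.03. Prkar2a, the type II regulatory subunit bound by most anchoring proteins, read −0.98, 0.29, 0.64 and 0.52 on the young arrays and −0.89, −1.52, −0.58 and −0.35 on the aged ones. Its arrays were ordered much as those of Akap3, and its difference was −0.95 ± 0.37 (SE, limma adjusted p = 0.127), or −1.32 (adjusted p = 0.00967) without young replicate 1. The catalytic subunit Prkaca had a difference of 0.39 ± 0.12 (SE, adjusted p = 0.0877) and the type I subunit Prkar1b one of −0.34 ± 0.12 (SE, adjusted p = 0.104). The groups did not overlap for either gene, as for 10.2% of all genes in the higher direction and 4.12% in the lower. With the probes of each gene averaged, Prkaca stood at 0.28 (limma adjusted p = 0.243). Prkar2b stood at 0.25 (adjusted p = 0.186), Prkacb at 0.09 (adjusted p = 0.738) and Prkar1a at −0.04 (adjusted p = 0.779).

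Anchoring proteins outside the members were also mixed. Of 30 listed, 17 were tested, 10 with higher and 7 with lower values, and their median of 0.12 was close to that of all genes. The smallest p-values were those of Akap17a, a splicing-linked nuclear anchoring protein (0.56 ± 0.12 SE, limma adjusted p = 0.0561), and Synm, the intermediate filament protein synemin (−0.71 ± 0.18 SE, adjusted p = 0.0664).

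In the lists of proteins that share the sperm tail with Akap3 and Akap4, all tested genes had lower RNA values. A list of 8 sperm proteins was chosen for the fold by which regulatory subunits dock on anchoring proteins, which most of them carry. All 6 tested genes of that list had lower values, with a median of −0.89. Rsph1, 1 of them, is a radial spoke protein. Cabyr, a calcium-binding fibrous sheath protein, had a difference of −1.22 ± 0.39 (SE, limma adjusted p = 0.0893) and Ropn1l, a ropporin relative that binds Akap3, one of −0.87 ± 0.31 (SE, adjusted p = 0.108). Without young replicate 1 these were −1.60 and −1.09 (adjusted p = 0.00702 and 0.0237). In the list of fibrous sheath and outer dense fibre genes, 10 of 18 were tested and all 10 had lower values. Their median was −0.92 and they ran from −1.91 to −0.10. Cimap1a stood at −1.91 ± 0.60 (SE, limma adjusted p = 0.0871) and Odf4 at −1.19 ± 0.41 (SE, adjusted p = 0.104). Without young replicate 1 these were −2.57 and −1.53 (adjusted p = 0.00306 and 0.0156), and 9 of the 10 were called lower without young replicate 1, as were 14.6% of all genes.

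Axonemal and ciliary genes, the setting of Akap14, had a median of −1.27. All 17 tested of 30 had lower values, the groups did not overlap for 6 (4.12% of all genes), and 13 were called lower without young replicate 1 (14.6% of all genes). The smallest p-values were those of Spag6, a central-pair protein (−1.93 ± 0.42 SE, limma adjusted p = 0.0561), and Foxj1, the transcription factor of motile cilia (−1.08 ± 0.24 SE, adjusted p = 0.0561). Without young replicate 1 these were −2.36 and −1.28 (adjusted p = 0.00301 and 0.00511).

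Enzymes that make, break or respond to cyclic AMP were divided, with 5 of 17 tested genes higher and 12 lower and a median of −0.21. The adenylyl cyclase Adcy5 stood at −0.62 ± 0.15 (SE, limma adjusted p = 0.0596). The phosphodiesterase Pde7b stood at −1.07 ± 0.29 (SE, adjusted p = 0.0723) and was well above background on only 2 of the 4 aged arrays. With only probes above background on all 8 arrays, another probe stood for Pde7b, at −0.43 (limma adjusted p = 0.364). With the probes of each gene averaged it stood at −0.75 (limma adjusted p = 0.119). Other enzymes that anchoring proteins hold had 9 higher and 8 lower values among 17 tested, with a median of 0.08. Ppp3r2, the testis regulatory subunit of calcineurin, stood at −1.51 ± 0.46 (SE, limma adjusted p = 0.0848) and the kinase Src at −0.38 ± 0.13 (SE, adjusted p = 0.102). Like Akap14, several dim genes had smaller differences with normexp and 75th-percentile scaling: Spag6 stood at −0.90, Foxj1 at −0.66, Odf4 at −0.58, Adcy5 at −0.31, Pde7b at −0.29 and Src at −0.11. Of these, Spag6 and Foxj1 were called there (limma adjusted p = 0.0354 each), where 630 of all genes tested (6.15%) were.

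**Figure D4:**
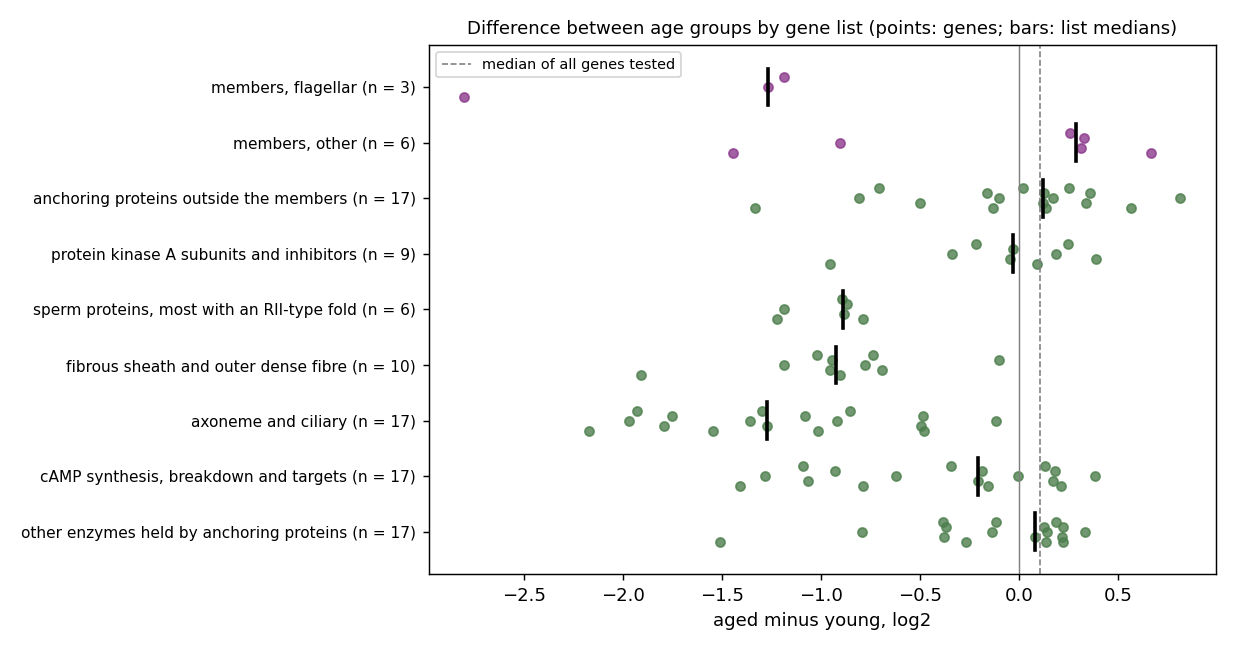
Aged minus young difference (log2) of each member and of each tested gene in the 7 pathway lists; points are genes, bars list medians and the dashed line the median of all genes (0.11). The lists of sperm tail genes lie wholly below 0, with medians of −0.89, −0.92 and −1.27, while the kinase subunits and the other anchoring proteins spread over both sides.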

How the data were processed

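The 8 arrays carried Cy3-labelled RNA (18 ng a sample, per the labels' protocols). Per the file headers, the deposited processed signal is a linear intensity with background subtracted, from Agilent Feature Extraction 10.7.3.1; the submitters' processing notes give version 12.5. The authors' deposited series table holds centred log2 values and served as an alternative. Probes were named by unversioned accession through the RefSeq gene table of GRCr8 (17998 of 30367 matched).

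Control and outlier spots were left out, log2 values were scaled to each array's 75th percentile over non-control probes, and spots of a probe were averaged. Probes stayed in where, in 1 group or both, each array had a share of 0.5 or more of their spots well above background, and the probe with the highest mean stood for its gene. Two-sided tests from limma 3.58.1 in R 4.3.3 (lmFit, eBayes; 9.15 moderated degrees of freedom) ran over 10236 genes with Benjamini-Hochberg adjustment and were tested on simulated data. No spot was saturated.

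Members and lists were chosen with earlier results of these data known. From each pathway list the 2 genes with the smallest p were named where none was called, with the 6 protein kinase A subunits in every case, and for each flagellar member the 5 genes most like it, of which 1 is not reported here. Alternatives covered scaling, background correction, filters, probe choice, array weights, the replicate block and leaving out each array. Same-numbered young and aged arrays deviated together with correlations of −0.26, −0.12, 0.44 and 0.35, so the numbers were not taken to pair the samples. The number of arrays limits the precision.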

Additional observations from a re-analysis of the deposited data

Results flagged for a closer look

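Among 68 groups of 4 arrays checked, in the member probes, the named pathway genes, Tnp1, Prm1 and the difference between flagellar and other members, 6 held an array whose gap to its nearest neighbour was above Dixon's critical value, as a share of the group's range, where chance flags about 1 in 20. For Akap12, young replicate 1 stood at −1.50 with the other young arrays at 0.37 to 0.63. For Synm, young replicate 1 stood at 0.37 with the others at 1.09 to 1.24. Aged replicate 2 was the low array for 3 genes: Ropn1l at 3.44 (others 4.41 to 4.52), Odf4 at −4.23 (others −3.02 to −2.80) and Ppp3r2 at −2.59 (others −1.24 to −1.08). For Src, young replicate 3 stood at −2.67 with the others at −2.94 to −2.90.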

How the results depend on the processing

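The difference between the flagellar and other medians was −1.56 as reported. Many alternatives cannot change it, since they shift all genes of an array alike or leave the members' values as they were. It stayed at −1.56 with median, spike-in, over-spots or no scaling, the authors' table, outlier spots kept, no filter, unnamed probes and the replicate block. Elsewhere it kept its sign, from −2.05 without young replicate 1 to −1.27 without young replicate 3. The differences of Akap3, Akap4, Akap1, Akap12 and Akap13 kept theirs in 23 of 23 alternatives each. Akap14 kept its sign in 22 of 22, having no value under the filter that needs all 8 arrays. Akap8 and Akap9 kept theirs in 22 of 23, turning under spike-in scaling, and Akap10 in 21 of 23, turning there and when its probes were averaged.

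The counts of calls were not stable. All genes called (67 as reported, 51 higher) came to 1330 with median scaling (1067 higher, 263 lower), 1067 with spike-in scaling (6 higher, 1061 lower), 630 and 253 with normexp under 75th-percentile and quantile scaling (363 and 219 higher, 267 and 34 lower) and 4529 with array weights. limma called 0 with no scaling, with no filter on dim probes and with unnamed probes included (1389, 3339 and 4929 at an unadjusted p under 0.05). Leaving out 1 array gave 0 to 3776, the highest without young replicate 1 and at most 1 without any other (1951 to 3009 at an unadjusted p under 0.05). Listed pathway genes called (0 as reported) came to 12 with median scaling, 27 with spike-in scaling, 9 and 2 with the same normexp settings, 57 with array weights, and 0 to 53 when 1 array was left out. Prkar1a turned to 0.11 with median scaling, and Prkaca, Prkacb and Prkar2b turned to −0.066, −0.37 and −0.21 with spike-in scaling; these scalings move the differences of all genes by the same amount. The replicate number as a block gave 0 calls (3231 at an unadjusted p under 0.05), though the numbers do not pair the samples. Signal over background limits Akap14 most, which was not well above background on 2 aged arrays. The 75th percentile over spots, an alternative chosen after seeing the data, gave 98 calls (56 higher, 42 lower).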

Other observations

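The word TGACATCA, seen in the promoters of Akap3 and Akap4, stood on either strand in 5 of the 15 promoters found for the fibrous sheath and outer dense fibre list (33.3%, beside 3.75% of all promoters of the same 250 bases): Cylc1, Cylc2, Fscb, Gapdhs and Oaz3. It stood in 1 of 6 promoters of the list of sperm proteins chosen for the docking fold (Ropn1), in 2 of 23 of the spermatid markers (Prm1 and Spaca7) and in 0 of 22 of the axonemal and ciliary list. GTTGCC stood in 9 of 22 axonemal and ciliary promoters (40.9%, beside 9.9% of all) and in 1 of 15 of the fibrous sheath list (Tcp11). It also stood in 3 of 6 promoters of the list chosen for the docking fold (50%: Catip, Ropn1 and Ropn1l). Of the spermatid markers, 3 of 23 held it (13%: Dkkl1, Prm3 and Spaca1). Both words were counted as letters only, with no test. Promoters were counted whether or not the gene was tested on the arrays. Of the genes named here, Cylc1, Cylc2, Fscb, Spaca7 and Catip were not.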
